A study of Mus musculus with 32 samples.

Results

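The EGR and NR4A transcription factors of mouse and the NAB co-regulators of the EGR proteins were followed in 4 lines of Ba/F3 cells, on all 32 arrays of the series. The 9 genes Egr1, Egr2, Egr3, Egr4, Nab1, Nab2, Nr4a1, Nr4a2 and Nr4a3 were chosen by name, and each had exactly 1 probe set annotated to its symbol alone, so 9 of 23410 probe sets with a gene symbol are described. No member was lost to a filter on low values. Egr2 was the only one of the 9 that differed by 1.5-fold or more between odd- and even-numbered arrays with an adjusted p under 0.05, and it did so in each line with an IL-23 type receptor, by factors of 3.26 to 11.2, and not in the parental line.

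Ba/F3 is an interleukin-3-dependent murine line labelled pro-B, and all 4 lines carry transduced human gp130, the signalling chain through which the fusion protein Hyper-IL-6 can keep them growing. Ba/F3-gp130, the parental line, carries nothing more. Ba/F3-IL-12Rβ1-IL-23R, the natural receptor line, was transduced in addition with the IL-23 receptor chains themselves. Ba/F3-SyCyR(IL-23/2A), the heterodimer line, carries both chains as synthetic receptors whose outer parts are nanobodies, against GFP on IL-12Rβ1 and against mCherry on IL-23R. The homomer line, Ba/F3-SyCyR(IL-23R), carries only the IL-23R chain with the GFP nanobody. Each receptor line was selected independently as a single stable population, so a difference between lines can also be a difference between populations. The paper describes Hyper-IL-6 in the growth medium of Ba/F3-gp130 cells. It also describes removing Hyper-IL-6 to select transduced lines that grow on GFP:mCherry proteins. Growth factor history before the arrays may therefore have differed between lines. Cells were washed free of growth factor and kept for 3 h without serum. They then received for 60 min either 100 ng/ml of a ligand (HIL-23, GFP-mCherry or 3xGFP, in the order of the receptor lines above) or supernatant of CHO-K1 cells as control. The sample labels name the line of every array, but not which arrays received ligand. Which ligand, if any, the parental line received is not stated either. Arrays are therefore described by line and by the number in their title, 13 to 20 in each line, and by whether that number is odd (4 arrays a line) or even (4 arrays a line). Odd and even are not called treated and control here.

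EGR proteins are zinc finger transcription factors, and NR4A proteins are orphan nuclear receptors that act without a classical ligand. Genes of both families are typical immediate early genes, transcribed within minutes of a growth factor, antigen receptor or cytokine signal from transcription factors already present in the cell, largely downstream of ERK, calcium and CREB pathways, and their mRNAs are short-lived. NAB1 and NAB2 bind EGR1, EGR2 and EGR3 and mostly hold back their activity, and Nab2 is itself known as a target of EGR factors, which makes it part of a feedback loop.

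The promoter window of Egr2 is shown because Egr2 is the member on which the odd and even arrays parted, and those of Nab2 and Nr4a2 because they showed the next largest differences. Each window runs from 250 bases before to 50 bases after a RefSeq start site, is written 5′ to 3′ on the gene's strand, and comes from build GRCm38.p6. Capitals mark matches, on either strand, to the motifs searched: the CArG box that binds SRF, TGACG and TGACGTCA of CREB sites (TGACG lies inside TGACGTCA), TTCNNNGAA of STAT sites, GCGNGGGCG of EGR sites and AAAGGTCA of NR4A sites. Nr4a1, Nr4a3, Egr4 and Nab1 were read as well, and the table holds 5 windows for Egr2, of which the one shown is the first of 3 that overlap.
Egr2, chr10:67537619-67537918, plus strand: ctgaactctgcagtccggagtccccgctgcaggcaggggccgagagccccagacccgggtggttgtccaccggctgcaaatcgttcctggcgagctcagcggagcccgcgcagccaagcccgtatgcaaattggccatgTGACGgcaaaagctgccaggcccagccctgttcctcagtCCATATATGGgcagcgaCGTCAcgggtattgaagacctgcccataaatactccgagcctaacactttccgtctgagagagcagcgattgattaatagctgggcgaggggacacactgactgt
Nab2, chr10:127666654-127666953, minus strand: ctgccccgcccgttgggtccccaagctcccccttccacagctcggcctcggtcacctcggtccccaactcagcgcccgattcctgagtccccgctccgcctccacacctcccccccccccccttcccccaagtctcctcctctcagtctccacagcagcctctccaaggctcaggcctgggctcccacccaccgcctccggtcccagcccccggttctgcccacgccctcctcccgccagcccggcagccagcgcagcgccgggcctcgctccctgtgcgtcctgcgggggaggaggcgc
Nr4a2, chr2:57123954-57124253, minus strand: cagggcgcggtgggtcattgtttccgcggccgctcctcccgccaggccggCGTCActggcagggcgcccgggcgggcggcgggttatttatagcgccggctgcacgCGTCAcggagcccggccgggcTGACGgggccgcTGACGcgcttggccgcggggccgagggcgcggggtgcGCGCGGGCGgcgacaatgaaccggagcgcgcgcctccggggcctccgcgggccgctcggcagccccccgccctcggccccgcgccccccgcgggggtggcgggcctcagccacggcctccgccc

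The Egr2 window held 1 CArG box, whose end lay 62 bases before the start site, and 2 TGACG matches, 1 on each strand and on either side of the box. A CArG box occurred in 1.63% of all 32851 windows and TGACG in 20.8%. Among the 7 members whose windows were read, only Egr2 had a CArG box, in 4 of its 5 windows, of which the overlapping ones share 1 box. Windows of Egr1 and Egr3 were not read, so the box cannot be called particular to Egr2 among the EGR genes. The Nr4a2 window held 4 TGACG matches and 1 GCGNGGGCG match, and GCGNGGGCG occurred in 5.55% of all windows. Neither motif was particular to it among the members. TGACG matched 4 times each in the Nr4a1 and Nr4a3 windows, 2 times in Egr4 and 1 time in Nab1. GCGNGGGCG matched 3 times in Nab1 and 1 time in Nr4a1. No match to any of the 6 motifs stood in the Nab2 window. Neither TTCNNNGAA, present in 8.30% of all windows, nor TGACGTCA, in 1.79%, nor AAAGGTCA, in 1.51%, was found in a window of the members. The search describes letters in these windows and nothing about binding.

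Values are log2 RMA values, which are normalised array intensities on which 1 unit is a 2-fold difference. Array medians lay between 6.94 and 7.18, and any pair of arrays of 1 line correlated at 0.988 or above over the 35556 probe sets of the table. The cells' pro-B label was checked against 14 measured marker genes. In every line 5 of them had a median level above 7.04, the median over the 35556 probe sets, tested or not: Ptprc, Cd79a, Cd79b, Vpreb2 and Igll1. The other 9 lay below it, among them the B lineage regulators Pax5 and Ebf1, the recombinase genes Rag1 and Rag2, and Il7r, Vpreb1, Dntt, Blnk and Cd24a. Granulocyte and macrophage genes such as Prtn3, Mpo and Cd68 were above that median in all lines, 4 to 7 of 12 by line. Of the 9 mast cell and basophil markers only Gata2 and Fcer1a were above that median in all lines, and Ms4a2 in the parental line alone. Kit, Cpa3, Mcpt8, Tpsab1, Tpsb2 and Hdc lay below it in every line. Cd8a was the only of 6 T cell markers above it. By limma 0 of these marker genes were called between odd and even arrays in any line, where at most 0.991% of all probe sets were called. At most 2 of a list had an unadjusted p under 0.05. The mean over the pro-B list lay at 6.84 to 6.93 on the odd and 6.78 to 6.85 on the even arrays of the natural receptor line. Of 7 heat shock genes 1 was called, Dnajb1 at 0.75 on the odd arrays of that line, and its part in the differences of the members was not tested.

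Egr2, which encodes a factor known for restraining activated T and B cells and for its role in myelinating Schwann cells, stayed level in the parental line. Its odd arrays read 7.60, 7.67, 7.52 and 7.66 and its even arrays 7.59, 7.68, 7.5 and 7.5. The groups overlapped throughout, with means of 7.62 ± 0.07 and 7.57 ± 0.08 (SD, n = 4 each). Their difference was 0.05 (95% confidence interval -0.42 to 0.52), with a limma adjusted p of 1. For Egr2 the fit used 1 spread over all lines, with a standard error of 0.23 for the difference in each line. The SDs pooled in it ran from 0.07 here to 0.83 on the odd arrays of the natural receptor line. The interval in a line is therefore not that of its own arrays alone. By limma 0 of 9 members were called in this line, where 0% of the 23410 probe sets were called, and 0 of 9 had an unadjusted p under 0.05.

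In the natural receptor line the odd arrays 13, 15, 17 and 19 read 11.09, 11.45, 9.60 and 11.16, and the even arrays 14, 16, 18 and 20 read 7.49, 7.32, 7.26 and 7.28. All odd arrays lay above all even ones, by a gap of 2.11 between the nearest values, and array 17 was the lowest of the odd arrays by a wide margin. The means were 10.83 ± 0.83 and 7.34 ± 0.11 (SD, n = 4 each). Egr2 was thus 3.49 higher on the odd arrays on the log2 scale (95% confidence interval 3.02 to 3.96), a factor of 11.2, with a limma adjusted p of 1e-12. This placed it 8th by size of difference among all probe sets tested. It was the 1 of 9 members called, against 0.991% of all probe sets. An unadjusted limma p under 0.05 was reached by 5 of 9, namely Egr1, Egr2, Nab2, Nr4a1 and Nr4a2. In RNA of a whole culture, fewer cells with the transcript and less transcript per cell cannot be told apart.

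In the heterodimer line the odd arrays read 10.91, 11.16, 10.83 and 11.26 and the even arrays 7.88, 7.66, 7.75 and 7.85. Both groups were tight here, with means of 11.04 ± 0.20 and 7.79 ± 0.10 (SD, n = 4 each), and the gap between them was 2.94. The difference of 3.25 (95% confidence interval 2.78 to 3.72) was a factor of 9.52, with a limma adjusted p of 9e-12, and was the 4th largest of all probe sets. Egr2 again was the 1 of 9 members called, against 0.487% of all probe sets. Egr2, Egr3, Nab2 and Nr4a2, 4 of 9, had an unadjusted limma p under 0.05.

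In the homomer line the step was smaller. Its odd arrays read 9.92, 8.88, 9.65 and 9.77 and the even arrays 7.80, 7.84, 8.13 and 7.63. The groups did not overlap, with a gap of 0.75, and array 15 was the lowest of the odd arrays. The means were 9.55 ± 0.47 and 7.85 ± 0.20 (SD, n = 4 each), and the difference of 1.71 (95% confidence interval 1.24 to 2.17) was a factor of 3.26, with a limma adjusted p of 3.1e-05. It was the 7th largest of all probe sets. Here too Egr2 was the 1 of 9 members called, against 0.137% of all probe sets, and the only 1 with an unadjusted limma p under 0.05.

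**Figure D1:**
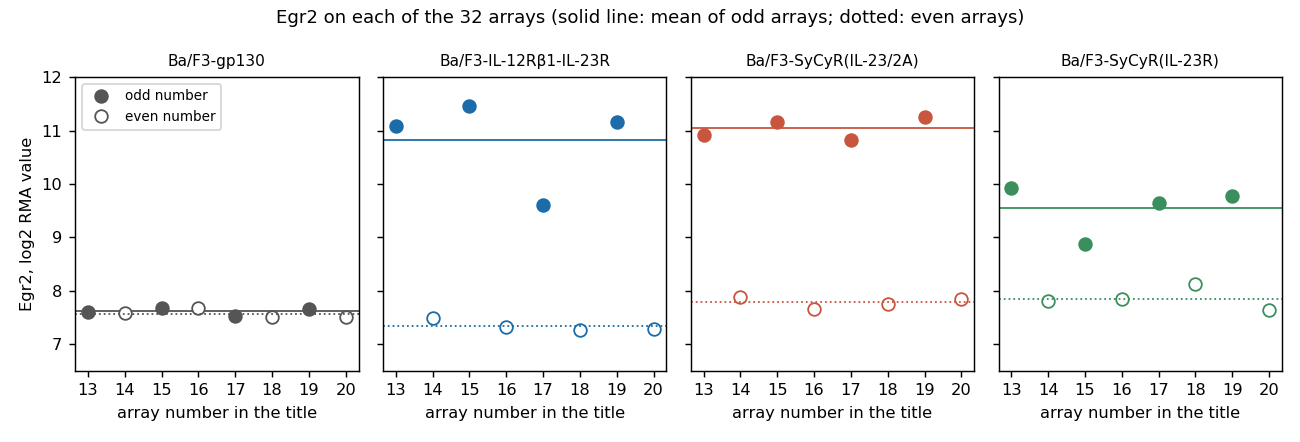
Log2 RMA value of Egr2 (vertical axis) on each array, by the number in the array's title (horizontal axis) and by line (panels); filled points are odd and open points even arrays, and lines are the means of 4 arrays. Odd and even arrays coincide near 7.6 in the parental line and separate in the other lines, with array 17 low at 9.60 in the natural receptor line and array 15 low at 8.88 in the homomer line.

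Whether the step in Egr2 differed between lines was tested on the difference of the differences. Against the parental line the odd minus even difference was larger by 3.45 in the natural receptor line (95% confidence interval 2.78 to 4.11, limma adjusted p = 9.5e-09), by 3.21 in the heterodimer line (2.54 to 3.87, limma adjusted p = 6.8e-08) and by 1.66 in the homomer line (0.996 to 2.32, limma adjusted p = 0.019). Egr2 was the 1 of 9 members called in each of these comparisons, where 0.889%, 0.32% and 0.094% of all probe sets were called, in the same order. An unadjusted limma p under 0.05 was reached by 3 members (Egr2, Egr3, Nr4a2), 2 (Egr2, Egr3) and 1 (Egr2), again in that order. All 3 comparisons share the parental arrays, whose treatment is not stated. The call in the homomer line was lost when array 14, 16 or 17 of the parental line or array 13, 14, 17, 19 or 20 of the homomer line was left out, with adjusted p of 0.052 to 0.085, and over all 35556 probe sets, with an adjusted p of 0.067. Over these and the other settings tried the size stayed between 1.54 and 1.89.

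Between the receptor lines, the natural receptor and the synthetic heterodimer could not be separated by Egr2. The heterodimer line minus the natural receptor line was -0.24 in this step, but the 95% confidence interval of -0.90 to 0.42 includes differences in either direction, and the limma adjusted p was 1. Over 24 other settings the difference ran from -0.65 to -0.03, with a lowest limma adjusted p of 0.47. By limma 0 of 9 members were called in that comparison, against 0.103% of all probe sets, and 0 had an unadjusted p under 0.05. The homomer line minus the natural receptor line was -1.79 (95% confidence interval -2.45 to -1.12, limma adjusted p = 0.0022), and Egr2 was the 1 of 9 members called, against 0.487% of all probe sets. Fitted on the arrays of those lines alone, that difference had an adjusted p of 0.077. Nr4a2 was the only other member with an unadjusted limma p under 0.05 between those lines. The homomer line minus the heterodimer line was -1.55 (95% confidence interval -2.21 to -0.88). That difference missed the threshold over all probe sets with a limma adjusted p of 0.054, and 0 of 9 members were called, against 0.0769% of all probe sets. Its unadjusted p of 4.6e-05 was under 0.05, the only such among the 9 members. The adjusted p fell below 0.05 in 7 of 24 other settings, where Egr2 was then called, and was 0.19 at the highest. It was 0.0096 with only the homomer and heterodimer lines fitted and 0.0035 with arrays 17 and 18 left out. It was 0.035 with title number as a block, 0.036 with neighbouring numbers as a block and 0.031 without array 13 of the homomer line. Array pairs of neighbouring numbers deviated together within every line, with correlations of 0.132 or above. The ligands differed between the lines while the stated dose and time were the same, so receptor, ligand and cell population cannot be told apart in these contrasts.

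None of the other EGR genes was called between odd and even arrays in any line. Egr1, usually the most readily induced gene of the family, lay between 6.48 and 6.95 on all 32 arrays, below 7.04, the median of the 35556 probe sets. Its odd minus even difference was largest in the natural receptor line, at 0.17 (95% confidence interval 0.0066 to 0.34, limma adjusted p = 0.27), where odd and even arrays overlapped. In the other lines it was between 0.0032 and 0.07. The table holds no detection call, so a transcript that is low cannot be told from one that is absent at such values.

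Egr3, which shares DNA sites with Egr2 and acts alongside it in lymphocytes, read 8.10 to 8.64 over all arrays. In the heterodimer line its odd arrays read 8.30, 8.58, 8.35 and 8.49 and its even arrays 8.25, 8.10, 8.32 and 8.21, a difference of 0.21 (95% confidence interval 0.04 to 0.39, limma adjusted p = 0.55). The odd array exceeded the even array of the next number in 4 of 4 pairs in this line, in 3 of 4 pairs in both other receptor lines and in 0 of 4 pairs in the parental line. The differences in the other lines were -0.13 in the parental line, 0.16 in the natural receptor line and 0.03 in the homomer line, and none passed the test. Against the parental line the difference of Egr3 was larger by 0.34 in the heterodimer line (95% confidence interval 0.095 to 0.58, limma adjusted p = 0.66). It was larger by 0.28 in the natural receptor line (0.038 to 0.525, limma adjusted p = 0.41) and by 0.15 in the homomer line (-0.093 to 0.39). Egr4, the family member best known from neurons, ranged from 6.79 to 7.40, with odd minus even differences between -0.04 and 0.08 and overlapping groups in every line.

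Of the co-regulators, Nab2 moved most. In the natural receptor line its odd arrays read 10.00, 10.06, 10.01 and 10.38 and its even arrays 9.79, 9.70, 9.73 and 9.93. In the heterodimer line the odd arrays read 9.98, 10.10, 9.95 and 10.10 and the even arrays 9.68, 9.67, 9.71 and 9.77. Odd and even arrays did not overlap in either line, and the gaps between the nearest values were 0.07 and 0.18. The differences were 0.32 (95% confidence interval 0.13 to 0.51) and 0.33 (0.14 to 0.52), each a factor of 1.25, with limma adjusted p of 0.051 and 0.12. In 16 other settings the adjusted p ranged from 0.005 to 0.3 in the natural receptor line and was under 0.05 in 7, title number as a block (0.036) and neighbouring numbers as a block (0.005) included. In the heterodimer line it ranged from 0.01 to 0.39 and was under 0.05 in 2. The factor stayed under 1.5 in all of these, so Nab2 was not called. In the parental line the difference was 0.07 and in the homomer line 0.06, with overlapping groups in both. The tests of the difference between lines did not pass for Nab2 in any pair, the lowest adjusted p being 0.54.

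Nab1, the related co-repressor, was level between odd and even arrays, with differences of -0.11 to 0.04 and overlapping groups in all lines. It differed between lines instead. On the even arrays of the homomer line it read 10.35, 10.43, 10.40 and 10.72, above 10.24, 10.16, 10.11 and 10.10 in the parental line. The groups did not overlap, and the difference of 0.32 (95% confidence interval 0.18 to 0.47) had a limma adjusted p of 0.0041, but as a factor of 1.25 it stayed under the 1.5-fold limit. It was 0.11 in the natural receptor line and 0.07 in the heterodimer line, neither passing. On the same even arrays of the homomer line, 3 of the 12 granulocyte and macrophage markers were called higher than in the parental line, Itgam at 2.01, Lyz2 at 1.56 and Ctsg at 1.41, and Mpo was lower at -1.92. The mean over that list was 7.37 to 7.69 by array against 7.08 to 7.34. Of the 9 mast cell and basophil markers Fcer1a was higher, at 1.41. The part of these markers in the Nab1 difference was not tested.

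Nr4a2, also known as Nurr1 and required for dopaminergic neurons, was the NR4A gene with the widest spread. In the natural receptor line its odd arrays read 9.66, 9.37, 9.09 and 9.48 and its even arrays 9.11, 9.0, 8.77 and 9.18. The groups overlapped, since odd array 17 lay under even arrays 14 and 20, yet the odd array was higher in 4 of 4 neighbouring pairs, by 0.30 to 0.55. The difference of 0.39 (95% confidence interval 0.20 to 0.58) had a limma adjusted p of 0.011 and was a factor of 1.31, under the fold limit. Its adjusted p was under 0.05 in 12 of 16 other settings, with a highest value of 0.21 in the fit of that line alone. In the heterodimer line the odd arrays read 8.68, 8.78, 8.61 and 8.77 and the even arrays 8.33, 8.52, 8.45 and 8.51. These did not overlap, but the difference of 0.26 had a limma adjusted p of 0.39. In the parental line and the homomer line it was 0.04 each, with overlapping groups.

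The level of Nr4a2 also set the natural receptor line apart. All 8 arrays of the natural receptor line lay between 8.77 and 9.66, above the 8.37 to 8.60 of the parental line. On the even arrays alone the difference was 0.57 (95% confidence interval 0.39 to 0.76, limma adjusted p = 3.2e-05), a factor of 1.49 that fell just short of the limit. With each array centred on its median the difference was 0.62, past the limit. The heterodimer line differed from the parental line by 0.01 and the homomer line by -0.22, and neither passed. On the same even arrays 3 of the 12 granulocyte and macrophage markers were called lower than in the parental line, Mpo at -2.45, Ctsg at -1.35 and Cd68 at -0.62, and 0 were called higher. The median difference over the list was -0.13, and the mean over the list was 6.76 to 6.86 by array against 7.08 to 7.34. Their part in the result was not tested.

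Nr4a1, known as Nur77 and a common read-out of antigen receptor signals, lay between 5.89 and 6.37 on all arrays. In the natural receptor line its odd arrays read 6.13, 6.24, 6.26 and 6.37 and its even arrays 6.09, 6.0, 6.07 and 6.0. They did not overlap, by a gap of 0.04, and the difference of 0.21 had a limma adjusted p of 0.099. In the other lines it was between 0.01 and 0.07 with overlapping groups. Nr4a3, known as Nor1, ranged from 5.46 to 6.01 and overlapped between odd and even arrays in all lines. On the even arrays it was 0.24 higher in the natural receptor line than in the parental line (95% confidence interval 0.10 to 0.39, limma adjusted p = 0.024), a factor of 1.18. Even array 18 of that line read 5.55, within the range of the parental line, and the other 3 read 5.80, 6.01 and 5.92.

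**Figure D2:**
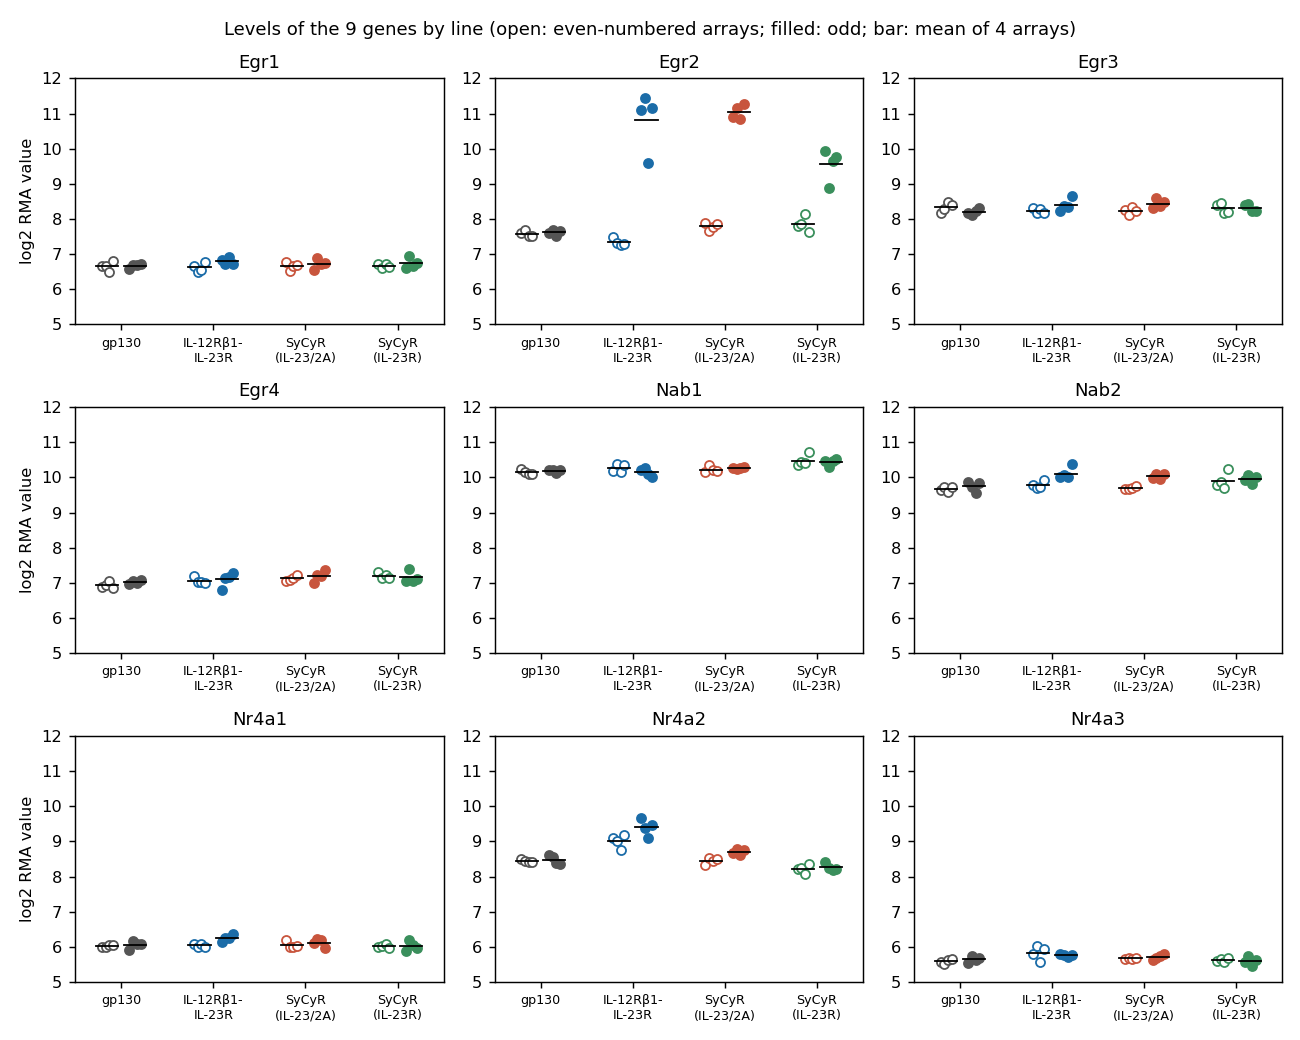
Log2 RMA value (vertical axis) of each of the 9 genes on the even (open) and odd (filled) arrays of the 4 lines (horizontal axis), with the mean of 4 arrays as a bar. On the common scale only Egr2 shows a wide step, and Nr4a2 stands higher in the natural receptor line, at 8.77 to 9.66, than in the parental line, at 8.37 to 8.60.

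For the whole set, the median odd minus even difference of the 9 members was 0.04 in the parental line, 0.17 in the natural receptor line, 0.07 in the heterodimer line and 0.03 in the homomer line. Over all probe sets tested the medians were 0.0024, 0.0023, -0.0005 and -0.0016. On the even arrays 0 of 9 members were called against the parental line in any receptor line by limma, with 2, 0 and 4 of 9 at an unadjusted p under 0.05 in the order of the lines that follows, where 2.49% of all probe sets were called in the natural receptor line, 0.337% in the heterodimer line and 1.4% in the homomer line. Without the fold limit the adjusted p was under 0.05 for Nr4a2 and Nr4a3 in the first and for Nab1 in the last. Egr2 itself differed by -0.23, 0.22 and 0.28 from the parental line on the even arrays, none of which passed. Its even-array means ran from 7.34 in the natural receptor line through 7.57 in the parental and 7.79 in the heterodimer to 7.85 in the homomer line, and no receptor line passed the test against the parental one.

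**Figure D3:**
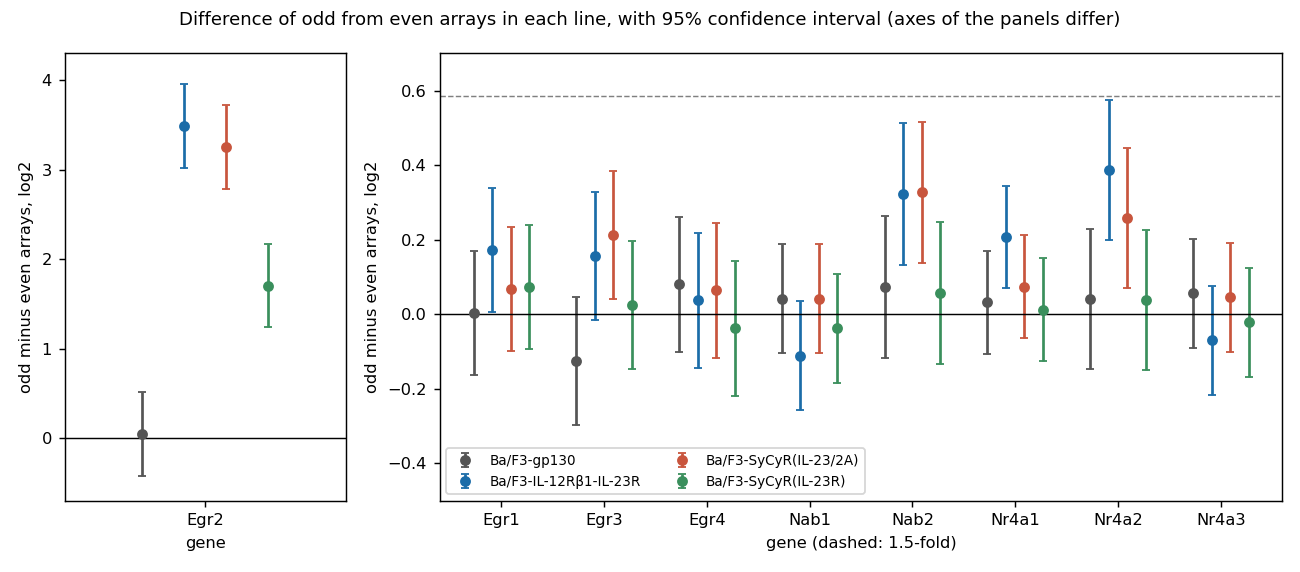
Mean of the odd minus mean of the even arrays in log2 units (vertical axis) for each gene (horizontal axis) and line (colour), with the 95% confidence interval of the fit; the scales of the panels differ. Egr2 reaches 3.49, 3.25 and 1.71 in the receptor lines and 0.05 in the parental line, while no other member passes the dashed line of 1.5-fold.

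Upstream regulators and partners of the members were compared by fixed lists. Of 9 measured genes for SRF, its partners, CREM, CREB1 and the MEF2 factors, 0 were called between odd and even arrays in any line, with list medians between -0.10 and -0.02. None of these 9 had an unadjusted p under 0.05. Of 7 measured kinases and GTPases of the ERK cascade, 3 RXR receptors that pair with NR4A proteins, and 8 subunits of the NuRD complex that NAB proteins recruit, likewise 0 were called in any line by limma, and 1, Rps6ka3 in the natural receptor line, had an unadjusted p under 0.05. Of all probe sets 0.991% were called in the natural receptor, 0.487% in the heterodimer, 0.137% in the homomer and 0% in the parental line. At such shares, 0 calls in lists this short say little about the listed genes. On the even arrays, Crem was higher by 0.62 and Elk3 lower, at -0.97, in the natural receptor line than in the parental line, and Nras was lower in the homomer line, at -0.67. Of 8 measured genes known as EGR targets, 1 was called. Icam1, an adhesion molecule that is also an NF-κB target, was higher on the odd arrays by 0.85 in the natural receptor line (limma adjusted p = 6.5e-07) and by 0.59 in the heterodimer line (limma adjusted p = 0.00063), and differed by 0.33 in the homomer line (limma adjusted p = 0.71).

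Immediate early genes of other families were read from a list of 34, of which 32 were measured. Of these 32, 15 were higher and 1 lower on the odd arrays of the natural receptor line, 12 were higher in the heterodimer line and 4 in the homomer line, and 0 were called in the parental line. The median difference over the list was 0.61, 0.43, 0.13 and 0.03 in that order. Zfp36, which encodes the mRNA decay factor tristetraprolin, was higher by 4.01, 3.47 and 2.29. Ier3, a stress response gene, was higher by 3.6, 2.79 and 1.88, and the AP-1 subunit gene Junb by 2.25, 1.75 and 1.32. Csrnp1 was higher by 2.05, 1.5 and 0.75. Fos, which shares SRF control with the Egr genes, was higher by 1.71 and 1.48 in the natural receptor and heterodimer lines, and its 0.80 in the homomer line missed the threshold (limma adjusted p = 0.055). Klf6 was the 1 that was lower, by -0.64 in the natural receptor line. Of 12 STAT3 response genes, 11, 10 and 7 were higher, and Socs3 and Osm were among the 3 with the largest differences in each receptor line.

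The genes whose levels ran most like Egr2 over the 32 arrays, among the 19929 genes compared, were Zfp36 (Pearson r = 0.982), Osm (0.980), Gadd45g (0.973), Lif (0.973) and Cish (0.970). The points share the same steps between odd and even arrays, which alone give high correlations. On the odd arrays, measured from the mean of the line's even arrays, Egr2 stood at 3.76, 4.12, 2.26 and 3.83 in the natural receptor line on arrays 13, 15, 17 and 19, so array 17 was far the lowest. Zfp36 on the same arrays stood at 3.87, 4.19, 3.71 and 4.27 and Osm at 4.36, 4.55, 4.06 and 4.60. Array 17 was the lowest for each of the 5 genes, but by less than for Egr2. In the homomer line, where Egr2 stood at 2.07, 1.03, 1.81 and 1.92, array 15 was the lowest for Zfp36, Osm and Gadd45g too, with Zfp36 at 1.88 beside 2.46, 2.46 and 2.35. Lif and Cish had their lowest value there on another array.

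**Figure D4:**
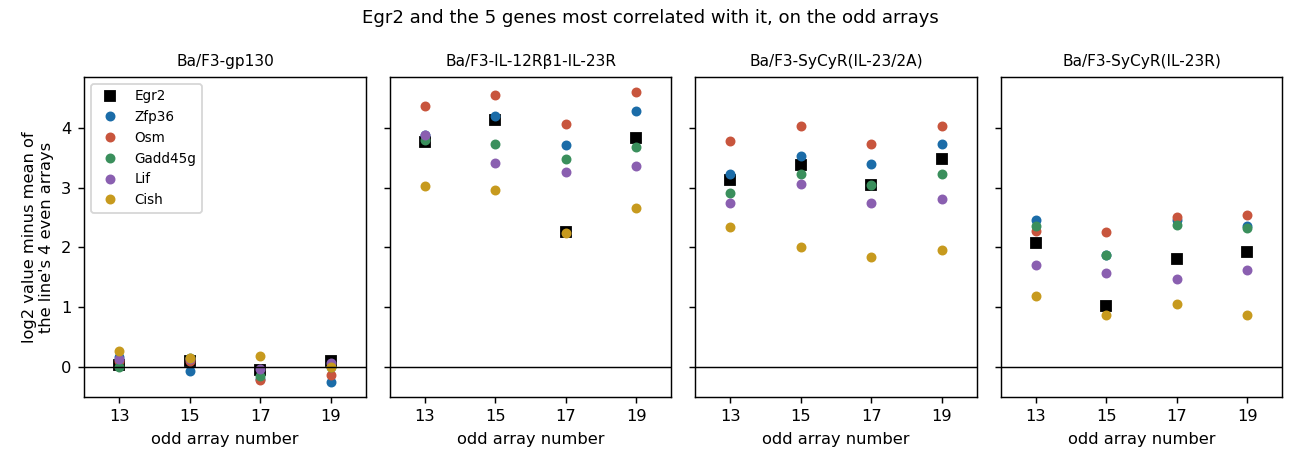
Log2 value on each odd array minus the mean of the line's 4 even arrays (vertical axis) by array number (horizontal axis) and line (panels), for Egr2 (squares) and the 5 genes most correlated with it (circles). Egr2 drops to 2.26 on array 17 of the natural receptor line and to 1.03 on array 15 of the homomer line, further below the line's other odd arrays than the 5 genes do.

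No member ran as closely with another. The highest correlation between 2 members over the 32 arrays was 0.697, between Egr2 and Nab2, followed by 0.617 between Nr4a2 and Nr4a3. Nab2 was most like Mdm2 (r = 0.844), Icam1 (0.824), Midn (0.816), Kalrn (0.814) and Ltbr (0.803). For Egr1, Egr3 and Nr4a1, whose values hardly varied, the closest genes reached 0.817, 0.807 and 0.768 (Terb1, Cyp46a1 and Gm4793).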

How the data were processed

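RNA of 32 cultures was hybridized to 1 Affymetrix Mouse Gene ST 1.0 array each. The methods speak of independent biological replicates, but the labels do not say which arrays they are. The deposited values are log2 RMA intensities, which the authors obtained with Affymetrix Expression Console at gene level with sketch-quantile normalization (versions are not given in the sources used here). Such values damp large differences near background and saturation and carry no detection call, and the number of arrays limits their precision. Per-sample columns without a sample numbered 0, and the table holds no comparisons of the authors.

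Of 35556 probe sets, 21789 had 1 symbol in the platform annotation, 1621 several and 12146 none. The 23410 with a symbol were tested, and only those with 1 symbol are named. The main fit was limma 3.58.1 in R 4.3.3 (lmFit, eBayes) with 1 mean for each line and title parity over all 32 arrays, 24 residual degrees of freedom, and Benjamini-Hochberg adjustment over all probe sets within each of 13 comparisons. A call needed an adjusted p under 0.05 and 1.5-fold. The same fit was also run on simulated data with known differences. The noise there was independent between arrays, unlike the correlated deviations of neighbouring arrays given below. The text names all 9 members, up to 5 called genes with the largest difference from each gene list, and the 5 genes most correlated with Egr1, Egr2, Egr3, Nr4a1 and Nab2. Genes outside the called ones that are given with values were chosen after their values were seen.

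The members, the gene lists and the split by odd and even title numbers were chosen with earlier results of these data known, so the p-values of that split are no independent evidence. Deviations from the group means of same-numbered arrays correlated above 0.1 in all 8 pairs for Ba/F3-gp130 with Ba/F3-IL-12Rβ1-IL-23R (lowest 0.112) and for Ba/F3-IL-12Rβ1-IL-23R with Ba/F3-SyCyR(IL-23/2A) (lowest 0.115), but not in all pairs of the other line combinations. Those of neighbouring numbers within a line correlated above 0.1 in every pair (lowest 0.132). Their medians were 0.302 to 0.428 by line, against -0.162 to -0.087 for other pairs of an odd and an even array. Deviations from a group mean cancel within the group, so positive values for neighbours force negative ones elsewhere. The negative values are thus no separate comparison. The main fit does not use this pairing. A block by title number or by neighbouring numbers, fits on the lines compared alone, other normalizations, filters and thresholds, and leaving out arrays were tried as alternatives. Promoter windows were read from RefSeq, build GRCm38.p6, for 7 of 9 members. Windows of Egr1 and Egr3 were not analysed here. Figures were drawn with Python 3.11.15 and matplotlib 3.10.9.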

Additional observations from a re-analysis of the deposited data

Results flagged for a closer look

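Egr2 was singled out because its odd minus even difference differed between lines by the interaction test. The difference of differences was 3.45 for Ba/F3-IL-12Rβ1-IL-23R against Ba/F3-gp130, 3.21 for Ba/F3-SyCyR(IL-23/2A) against Ba/F3-gp130, 1.66 for Ba/F3-SyCyR(IL-23R) against Ba/F3-gp130 and -1.79 for Ba/F3-SyCyR(IL-23R) against Ba/F3-IL-12Rβ1-IL-23R.

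A single array lay far from the other 3 of its line and parity in 4 of 72 groups of 4 arrays, and chance gives about 1 in 20 groups. Egr4 read 7.405 on odd array 15 of Ba/F3-SyCyR(IL-23R), beside 7.04 to 7.10. Nab2 read 10.38 on odd array 19 of Ba/F3-IL-12Rβ1-IL-23R, beside 10.00 to 10.06. Nr4a1 read 6.18 on even array 14 of Ba/F3-SyCyR(IL-23/2A), beside 5.98 to 6.01. Nr4a2 read 8.51 on even array 14 of Ba/F3-gp130, beside 8.41 to 8.43.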

How the results depend on the processing

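Limits: no label ties an array to a ligand, each receptor line is 1 population, and for genes near or under the array median (Egr1, Egr4, Nr4a1, Nr4a3) low and absent cannot be told apart. Egr2 stayed called on the odd against the even arrays of all 3 receptor lines, and against the parental line in the natural receptor and heterodimer lines, under every alternative run. No result reversed its sign as a called value.

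Members called, by comparison, changed as follows. The homomer against the heterodimer step went from 0 to 1 (Egr2) with the fixed replicate block by title number (-1.55, adjusted p = 0.035), the block by neighbouring numbers (0.036), only those lines fitted (0.0096), quantile normalization (0.038), only probe sets above the median (0.045), an unadjusted p of at most 0.01, and arrays 17 and 18 left out (0.0035). With the homomer against the natural receptor it went from 1 to 0 with only those lines fitted, and with the homomer against the parental line from 1 to 0 over all probe sets. The even arrays of the natural receptor line against the parental line went from 0 to 1 (Nr4a2) with median centring (0.62), quantile normalization (0.60) and arrays 17 and 18 left out (0.65), and to 2 without the fold limit, which also gave 2 on its odd against even arrays and 1 (Nab1) on the even arrays of the homomer line. The cause was not tested. The replicate block changed no other call of a member, and the other 112 of 127 counts under such alternatives were as before. The consensus correlation of same-numbered arrays was 0.244.

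With 1 array left out, the count ranged from 0 to 1 for the homomer against the parental line (8 of 16 arrays, named in the report, gave 0), for the homomer against the heterodimer (1 without array 13 of the homomer) and for the even arrays of the natural receptor line (1 without array 14 of the parental line or 18 of the natural line). It stayed at its value in all other comparisons.

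Over all probe sets, the count for the heterodimer against the natural step was 24 and ranged from 11 to 75, with 51 under the replicate block and 65 without array 17 of the natural line. Counts for the heterodimer against the parental line rose from 75 to 113 and for the homomer against the heterodimer from 18 to 31 under that block, and to 120 and 33 with neighbouring numbers. An unadjusted p gave 113, 37 against 22 (homomer against the parental line) and 37 against 18 in those comparisons. Using all probe sets gave 357 against 232 (odd against even arrays, natural), 165 against 79 and 1240 against 327 (even arrays, heterodimer and homomer), and no fold limit gave 730, 223 against 114, 2341 against 584, 225 and 1449. The block by neighbouring numbers could not be fitted for even arrays alone, and averaging a gene's probe sets was not run because each member has 1.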
